A study of Mus musculus with 9 samples.

Results

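The 10 genes described here belong to the hypoxia-inducible factor (HIF) axis outside glycolysis, and all 10 were found by symbol among the 21352 genes of the deposited expression table. They are the oxygen-regulated transcription factor subunit gene Hif1a, the hydroxylase genes Egln1 and Egln3, the secreted factor genes Vegfa and Adm, the mitophagy receptor genes Bnip3 and Bnip3l, the pyruvate dehydrogenase kinase gene Pdk1, the stress-responsive gene Ndrg1 and the collagen hydroxylase gene P4ha1. RNA came from HT-22 cells, a mouse line established from hippocampal neurons, in 3 groups of 3 libraries. Control (CON) cells are labelled WT with no treatment named, HTL cells received homocysteine thiolactone at 2 mM for 24 hours, and betaine plus HTL (B-HTL) cells received betaine at 10 mM for 4 hours ahead of the same HTL exposure. All groups grew in medium with serum, the labels name no allele, and no library came from cells given betaine without HTL. Below, "with betaine" stands for betaine plus HTL, set against HTL unless another group is named.

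HIF is a dimer of an oxygen-sensitive alpha subunit and the stable subunit ARNT. When oxygen, iron and 2-oxoglutarate are at hand, EGLN enzymes hydroxylate the alpha subunit, and the VHL ubiquitin ligase then marks it for the proteasome, so that its control lies mainly at the protein and not at the mRNA. When hydroxylation fails, the dimer binds short DNA cores near its target genes and raises their transcription, among them genes for blood vessel growth, mitophagy and a switch away from pyruvate oxidation. The values below are mRNA levels, and no HIF protein or oxygen level was measured.

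Levels are in FPKM, fragments scaled to gene length and library total, which can be set side by side between genes of a library. Library totals inferred from the steps of low values gave 33295131 to 39452715 reads on listed genes per library. Pairs of replicates gave a chi-square per degree of freedom between 2.84 and 6.35, more than sampling of reads allows, and none was a duplicate. Of 15 neuronal markers 10 were in the table and 1 (Tubb3, mean 9.52 FPKM) reached 0.5 FPKM on average, with Map2, Mapt, Syp and Rbfox3 at 0.41, 0.02, 0.15 and 0.00 FPKM at most, so defining markers of the labelled neuronal type were nearly absent. Endothelial markers, of which 6 of 8 were in the table, summed to 3.16 to 3.39 FPKM in control, 2.81 to 2.88 in HTL and 2.13 to 2.54 in betaine plus HTL libraries, with Flt1 holding most of the sum and Pecam1 and Cdh5 at 0.09 and 0.07 FPKM at most. Summed astrocyte markers (6 of 8 in the table) went the other way, at 114 to 117, 122 to 125 and 141 to 144 FPKM, nearly all of it Gja1 with Gfap at 0.03 at most. The sum of mesenchymal markers (8 of 9, of which 4 reached 0.5 FPKM on average) was lower in the same order, at 2110 to 2150, 1740 to 1760 and 1620 to 1640 FPKM. Vim had the highest mean in that list (883 FPKM), with Col1a2, Col3a1 and Lum at 0.20, 0.42 and 0.01 at most. Microglial (7 of 8) and oligodendrocyte (5 of 8) sums were 8.82 to 10.2, 9.82 to 10.4 and 6.56 to 7.53 FPKM, and 9.44 to 9.88, 10.5 to 10.8 and 12.8 to 13.1 FPKM, with Ptprc and Mbp at 0.00 and 0.04 at most. In each of these lists 2 genes reached 0.5 FPKM on average. The highest means were those of Tmem119 (7.43 FPKM, microglial) and Cspg4 (6.72 FPKM, oligodendrocyte). The part of these markers in the members' results was not tested. In bulk RNA, fewer cells that express a gene and less RNA per cell cannot be told apart.

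The sequences below lie before an annotated start of 4 of the 6 members that were higher in betaine plus HTL than in HTL, shown because the core that HIF binds can be looked for in them. The P4ha1 and Hif1a windows, both Pdk1 windows and the other Vegfa window overlap their genes as annotated and are not printed, though they are counted below. The set of promoter sequences used here held 8 of the 10 members, with Bnip3l and Ndrg1 unmatched, and its windows come from RefSeq (GRCm38.p6). Each is 250 bases long, written 5′ to 3′ on the gene's strand and ending at the base before the start. Capitals mark the core that HIF is known to bind, searched as ACGTG or GCGTG and, for the other strand, CACGT or CACGC.
Vegfa (chr17:46032378-46032627, minus strand): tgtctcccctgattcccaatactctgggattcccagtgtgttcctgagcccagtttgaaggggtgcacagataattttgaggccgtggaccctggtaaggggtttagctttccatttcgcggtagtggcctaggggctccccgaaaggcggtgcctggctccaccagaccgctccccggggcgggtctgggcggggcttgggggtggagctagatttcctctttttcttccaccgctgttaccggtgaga
Egln1 (chr8:124949255-124949504, minus strand): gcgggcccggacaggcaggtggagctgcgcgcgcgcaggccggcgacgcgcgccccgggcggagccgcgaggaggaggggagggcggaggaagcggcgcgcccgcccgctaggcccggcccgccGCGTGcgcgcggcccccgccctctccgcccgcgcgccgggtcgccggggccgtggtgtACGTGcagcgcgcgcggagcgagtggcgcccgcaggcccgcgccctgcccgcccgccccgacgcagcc
Egln3 (chr12:54203875-54204124, minus strand): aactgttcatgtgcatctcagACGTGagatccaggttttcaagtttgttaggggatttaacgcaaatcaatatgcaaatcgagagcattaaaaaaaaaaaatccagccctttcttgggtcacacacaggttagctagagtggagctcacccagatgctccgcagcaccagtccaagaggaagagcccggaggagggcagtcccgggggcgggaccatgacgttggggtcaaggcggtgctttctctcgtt
Bnip3 (chr7:138909507-138909756, minus strand): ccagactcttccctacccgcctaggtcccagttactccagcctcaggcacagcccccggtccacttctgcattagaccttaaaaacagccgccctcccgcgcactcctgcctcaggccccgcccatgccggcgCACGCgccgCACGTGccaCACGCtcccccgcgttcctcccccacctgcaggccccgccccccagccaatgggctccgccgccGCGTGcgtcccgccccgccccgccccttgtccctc

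A match was found 2 times in Egln1 (126 and 68 bases before the start), 1 time in Egln3 (229 bases) and 3 times in P4ha1 (163, 126 and 16 bases). Bnip3 held 5 matches at 117, 108, 107, 99 and 35 bases, of which the pair at 108 and 107 overlap in the palindrome CACGTG, a motif that E-box factors also bind. The Vegfa window shown held none, while a window before another annotated Vegfa start held 2. Among the members not printed, Hif1a had 3 matches (135, 134 and 70 bases, with CACGTG once), Adm 2 (90 and 54 bases) and Pdk1 1 (78 bases). In all, 8 of the 10 member windows held a match, against 38.6% of 32851 windows of the same length. The ACGTG form on either strand was in 6 of the 10, against 16.6% of all windows, and CACGTG in 2 of the 10, against 6% of all. As the members were picked as HIF axis genes, these shares are no test of them. A match is a stretch of letters and says nothing of binding, and its absence from a window says nothing of the factor.

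**Figure D1:**
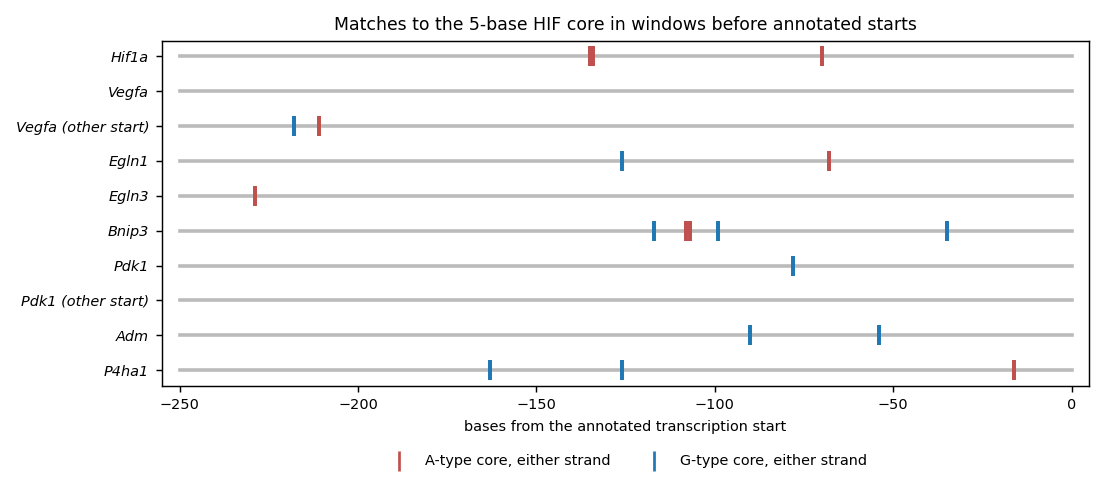
Positions of the HIF core in windows before annotated starts of 8 members (x axis, bases from the start; grey lines, windows of 250 bases; red ticks, ACGTG or its reverse complement; blue ticks, GCGTG or its reverse complement). Bnip3 carries 5 ticks, and the first of the Vegfa windows none.

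Among the regulators, Hif1a encodes the oxygen-labile subunit of the dimer (chromosome 12, 73901324 to 73947554, GRCm38). It stood at 71.3, 72.2 and 67.1 FPKM in control libraries, at 67.6, 69.0 and 66.6 in HTL libraries and at 68.4, 68.9 and 66.0 in betaine plus HTL libraries. The 3 groups overlapped. Their means were 70.2 ± 2.72, 67.7 ± 1.2 and 67.8 ± 1.52 FPKM (SD, n = 3 each). On the log2(FPKM + 1) scale used for every test here, HTL minus control was -0.05 (95% interval -0.12 to 0.02, limma adjusted p = 0.193), and betaine plus HTL minus HTL was 0.00 (-0.07 to 0.07, 0.994).

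Egln1 encodes the main hydroxylase that turns the HIF alpha subunit over. Its libraries read 35.2, 34.3 and 34.5 FPKM in control, 40.1, 37.4 and 37.8 in HTL, and 45.4, 43.7 and 46.2 in betaine plus HTL. The 3 groups were fully separated and stepped up in that order. HTL raised it by 10.8% (log2 fold change 0.14 ± 0.033 SE by limma, adjusted p = 0.00266) and betaine plus HTL lay a further 17.3% above HTL (0.23 ± 0.033, 0.000383). The rise with HTL did not pass under median-of-ratios size factors (0.058 on the log2 scale, adjusted p = 0.176, with 0.00206 to 0.176 over all settings).

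Egln3 encodes a second hydroxylase of the same family, itself a known HIF target. It read 17.6, 17.5 and 17.2 FPKM in control, 15.4, 15.4 and 15.5 in HTL, and 17.7, 17.2 and 17.9 in betaine plus HTL libraries. The HTL libraries lay below all others, while control and betaine plus HTL overlapped. It fell by 11.8% with HTL (log2 fold change -0.17 ± 0.029 SE by limma, adjusted p = 0.00044) and was 14% higher with betaine plus HTL than with HTL (0.18 ± 0.029, 0.00088). Betaine plus HTL minus control was 0.008, with a 95% interval of -0.056 to 0.072 (adjusted p = 0.827).

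Within a library, the ratio of 2 genes does not depend on how libraries were scaled. The ratio of Egln3 to Egln1 was 0.501, 0.512 and 0.498 in control, 0.383, 0.411 and 0.409 in HTL, and 0.389, 0.392 and 0.387 in betaine plus HTL libraries. All 6 HTL-exposed libraries lay below the 3 controls, whether or not betaine had been given, and the HTL and betaine plus HTL libraries overlapped. The means were 0.504 ± 0.0073, 0.401 ± 0.016 and 0.390 ± 0.0025 (SD, n = 3 each).

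Of the secreted factors, Vegfa, the main growth factor for blood vessels (chromosome 17, 46016993 to 46032377), had the largest difference between betaine plus HTL and HTL among the members. It read 29.1, 27.5 and 28.1 FPKM in control, 30.4, 30.7 and 34.1 in HTL, and 49.6, 48.1 and 54.4 in betaine plus HTL libraries. No groups overlapped, and within both HTL and betaine plus HTL replicate 3 was the highest. Betaine plus HTL exceeded HTL by 59.8% (log2 fold change 0.66 ± 0.051 SE by limma, adjusted p = 4.28e-06) and control by 79.8% (0.82 ± 0.051, 1.63e-07). HTL alone gave 12.5% more than control (0.16 ± 0.051, adjusted p = 0.0167), a call that was lost without HTL replicate 3 (0.11, adjusted p = 0.074), without control replicate 2 (0.14, 0.0589), under size factors (0.078, 0.203) and with no filter on low genes (0.0674), with 0.00684 to 0.203 over all settings. In HTL and in betaine plus HTL, Vegfa varied most between replicates among the 9 tested members, with a coefficient of variation of 6.43% and 6.49%, where counting error alone gives 1.4% and 1.14%. In control it was 2.88%, below Bnip3 (4.7%) and Hif1a (3.87%).

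Adm, which encodes the vasodilator peptide adrenomedullin, was barely detected. By the inferred depth it had 1, 0 and 1 reads in the control libraries, 3, 1 and 2 in the HTL libraries and 0, 0 and 0 in the betaine plus HTL libraries. The highest value was 0.055 FPKM, in HTL replicate 1. A count of 0 over the 3 betaine plus HTL libraries allows up to 0.02 FPKM (3 reads over the group, counting error only), so no fold is given. It was the 1 member that missed the mean of 0.5 FPKM and was not tested.

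Bnip3 encodes a mitochondrial outer membrane receptor for mitophagy (chromosome 7, 138890836 to 138909506). It read 79.8, 79.6 and 73.4 FPKM in control, 63.2, 63.4 and 65.6 in HTL, and 77.1, 76.7 and 73.7 in betaine plus HTL libraries. As with Egln3, the HTL libraries lay below all others. It fell by 17.4% with HTL (log2 fold change -0.27 ± 0.035 SE by limma, adjusted p = 5.49e-05) and was 18.3% higher with betaine plus HTL than with HTL (0.24 ± 0.035, 0.000399). Betaine plus HTL minus control was -0.031, with a 95% interval of -0.11 to 0.046 (adjusted p = 0.455).

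Bnip3l, also called NIX, encodes the related receptor that clears mitochondria from maturing red cells. It read 40.3, 41.4 and 40.9 FPKM in control, 42.6, 42.3 and 42.7 in HTL, and 40.2, 40.7 and 38.2 in betaine plus HTL libraries. The HTL libraries were the highest, by a small margin. HTL minus control was 0.057 on the log2 scale (limma adjusted p = 0.106), and with betaine plus HTL it fell by 6.76% from the HTL level (-0.099 ± 0.029 SE, adjusted p = 0.0194). That fall was lost without HTL replicate 1 (0.0503), HTL replicate 3 (0.0589) or library 3 of betaine plus HTL (0.0557), and under size factors (0.105), the range being 0.0168 to 0.105.

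The ratio of Bnip3l to Bnip3 in the same libraries was 0.506, 0.520 and 0.558 in control, 0.673, 0.668 and 0.651 in HTL, and 0.522, 0.530 and 0.517 in betaine plus HTL. The HTL libraries stood apart above the rest, and the other groups overlapped. The means were 0.528 ± 0.027, 0.664 ± 0.011 and 0.523 ± 0.0064 (SD, n = 3 each).

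**Figure D2:**
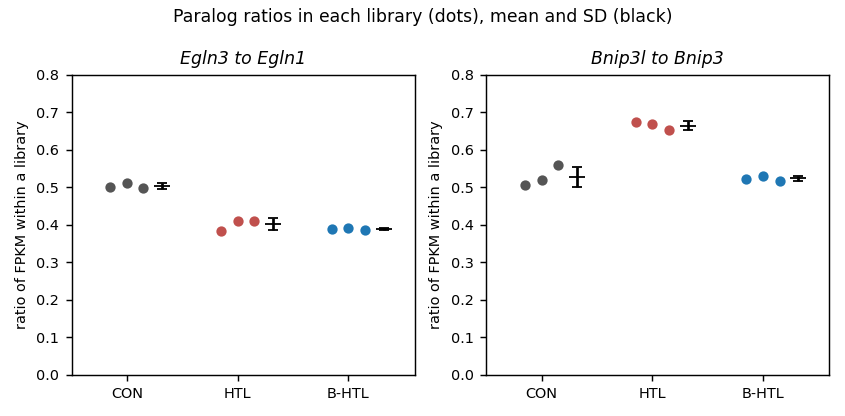
FPKM ratios of the paralog pairs Egln3 to Egln1 (left) and Bnip3l to Bnip3 (right) in each library (dots), with the group mean and SD (black). The first was lower in all 6 HTL-exposed libraries than in controls (means 0.401 and 0.390 against 0.504), and the second was high in the HTL libraries (mean 0.664).

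Pdk1, whose kinase shuts off pyruvate dehydrogenase and so keeps pyruvate out of the citric acid cycle, read 11.1, 11.0 and 10.7 FPKM in control, 9.26, 9.11 and 9.21 in HTL, and 9.21, 9.77 and 9.39 in betaine plus HTL libraries. Both HTL-exposed groups lay below control and overlapped each other. It fell by 15.9% with HTL (log2 fold change -0.23 ± 0.035 SE, limma adjusted p = 0.000204). Betaine plus HTL minus HTL was 0.037 (95% interval -0.04 to 0.11, adjusted p = 0.445), and betaine plus HTL stayed below control (-0.19 ± 0.035, 0.0006).

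Ndrg1, a cytoplasmic protein gene widely used as a marker of hypoxia and metal chelation, was the most abundant member (chromosome 15, 66929318 to 66969641). It read 99.9, 96.2 and 95.8 FPKM in control, 154, 151 and 154 in HTL, and 163, 172 and 163 in betaine plus HTL libraries. Most of the step came with HTL, and no groups overlapped. HTL raised it by 57% (log2 fold change 0.65 ± 0.028 SE by limma, adjusted p = 1.68e-08) and betaine plus HTL lay 8.74% above HTL (0.12 ± 0.028, 0.00689).

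P4ha1 encodes the catalytic subunit of the prolyl hydroxylase that stabilizes collagen. It read 42.7, 41.9 and 42.5 FPKM in control, 42.5, 42.2 and 41.4 in HTL, and 48.7, 50.0 and 46.3 in betaine plus HTL libraries. Control and HTL overlapped, and the betaine plus HTL libraries lay above both. HTL minus control was -0.011 (95% interval -0.077 to 0.055, limma adjusted p = 0.773), but the gene passed as lower under size factors (-0.097, 0.027). Betaine plus HTL exceeded HTL by 14.9% (0.2 ± 0.03 SE, adjusted p = 0.000565).

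**Figure D3:**
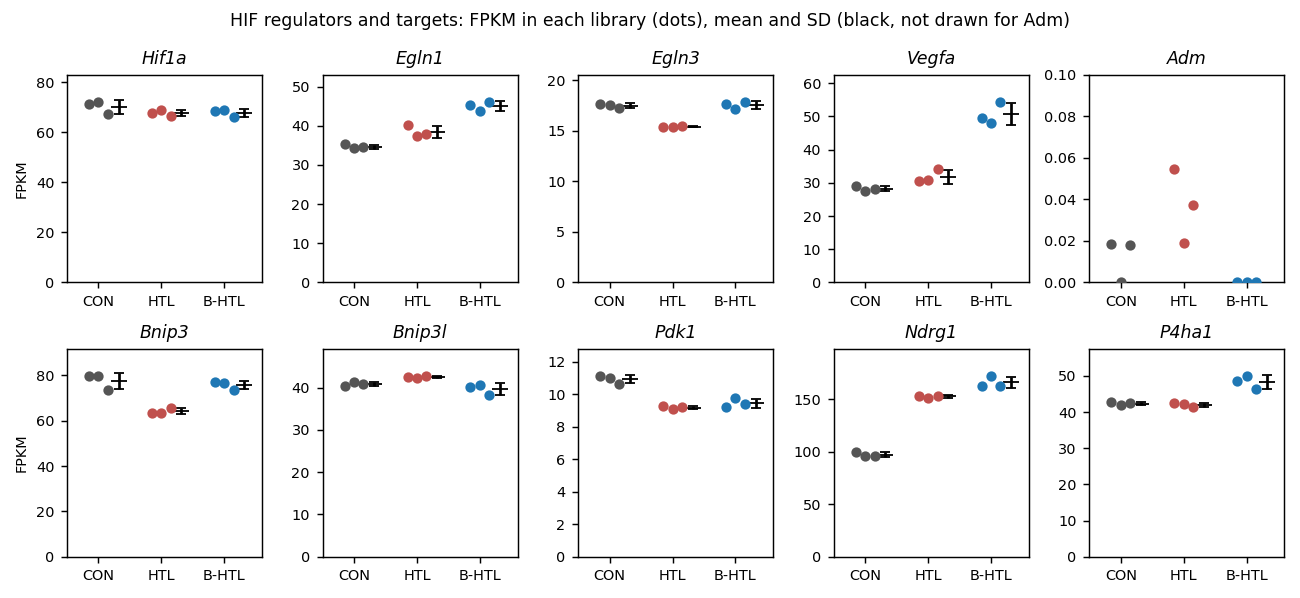
FPKM (y axis, from 0) of the 10 members in each of the 9 libraries (dots), with group mean and SD (black bars, not drawn for Adm). Bnip3 and Egln3 dip in the HTL libraries, and Ndrg1 steps up with HTL from a mean of 97.3 to 153 FPKM. Vegfa steps up from a mean of 31.7 FPKM in HTL to 50.7 FPKM in betaine plus HTL.

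By level, the order of the means over the 9 libraries was Ndrg1 (139 FPKM), Bnip3 (72.5), Hif1a (68.6), P4ha1 (44.3), Bnip3l (41.0), Egln1 (39.4), Vegfa (36.9), Egln3 (16.8), Pdk1 (9.86) and Adm (0.0164). Neighbours in the middle of that order do not hold their places. Bnip3 exceeded Hif1a in every control and betaine plus HTL library and was below it in every HTL library, and Vegfa was below Egln1 in every control and HTL library and above it in every betaine plus HTL library. Between replicates the smallest spread was that of Egln3 in HTL, at 0.358%, below its counting error of 2.34%. In the authors' deposited annotation 7 of the 10 carry a gene ontology term that names hypoxia, against 0.96% of all genes, and 5 are in the HIF-1 signaling pathway, against 0.496%. The members without a term that names hypoxia are Ndrg1, Adm and P4ha1. As the members were picked as HIF axis genes, high shares of these annotations follow from the choice.

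The first comparison, HTL with control, is about the thiolactone. Ndrg1, Egln1 and Vegfa were higher and Bnip3, Pdk1 and Egln3 lower, so the members did not move one way. Of the 9 tested, 6 passed, against 60.3% of the 11012 genes tested. Of these, 3 rose and 3 fell, where 39.8% of all genes rose and 20.4% fell (limma, Benjamini-Hochberg adjusted p under 0.05). Control and HTL libraries were separate for 7 members, against 67.2% of all genes, so the members' share lies near the background. The median log2 difference was -0.01 for the members and 0.07 for all genes. Scaling matters here: rises made up 66.1% of all calls, but 46.5% under size factors and 52.3% under quantile normalization. Under size factors 1 member rose (Ndrg1) and 5 fell, with Hif1a (-0.14, adjusted p = 0.00495) and P4ha1 added to the falls. Hif1a also passed as lower without control replicate 3 (-0.081, 0.0402), with 0.00495 to 0.496 over all settings.

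The second comparison is about betaine given ahead of HTL, with HTL cells as the reference. Vegfa, Bnip3, Egln1, P4ha1, Egln3 and Ndrg1 were higher and Bnip3l lower. Of 9 members 7 passed, against 35.2% of all genes tested, and 6 rose, against 14.5% of all genes tested, and 1 fell, against 20.6%. The members and the lists below were chosen with earlier results of these data known, so a share above that of all genes is no test of them. Groups did not overlap for 7 members, against 47.7% of all genes. The median was 0.18 for the members and -0.02 for all genes. The 6 rises passed under all 16 alternative settings. Of all calls 41.4% were rises, against 55.3% under size factors and 51.9% under quantile normalization.

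Betaine plus HTL against control gives the net difference. Vegfa, Ndrg1, Egln1 and P4ha1 were above control and Pdk1 below it, while Hif1a, Egln3, Bnip3 and Bnip3l did not pass. Of 9 members 5 passed, against 63.4% of all genes, and 4 rose, against 37.7% of all genes, and 1 fell, against 25.7%, and groups did not overlap for 5 members, against 67.1% of all genes. These 5 calls passed under all 16 alternatives. Hif1a passed as lower in 2 of them, without control replicate 3 (-0.081, adjusted p = 0.0392) and under size factors (-0.11, 0.0179), with 0.0179 to 0.863 over all settings. Bnip3l passed as lower under size factors (-0.098, 0.0151), with 0.0151 to 0.624 over all. Rises were 59.5% of all calls, against 48.1% under size factors. The comparisons share libraries, so their results are not independent.

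**Figure D4:**
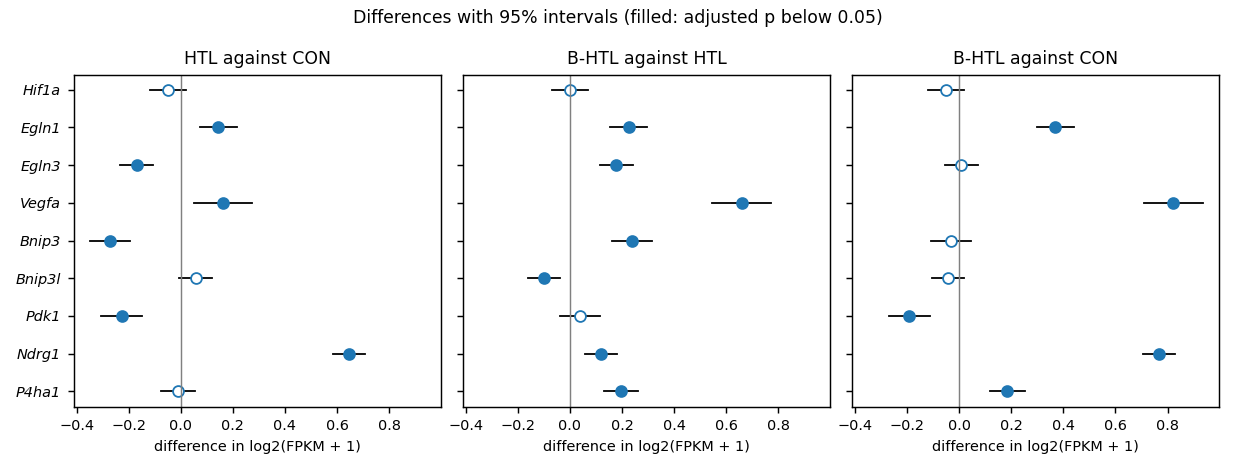
Differences in log2(FPKM + 1) of the 9 tested members (rows) in the 3 comparisons (panels), with 95% intervals from limma (lines) and calls at an adjusted p under 0.05 (filled points). Bnip3 and Egln3 lie left of 0 in the first panel and right of it in the second. Vegfa lies farthest right in the second, at 0.66.

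Whether the step from HTL to betaine plus HTL differed from the step from control to HTL was tested as a second difference in the same fit, in which the HTL libraries count on both sides. It was positive for Bnip3 (0.51 ± 0.061 SE, limma adjusted p = 7.44e-05), Vegfa (0.497 ± 0.089, 0.00105), Egln3 (0.35 ± 0.051, 0.000302), Pdk1 (0.26 ± 0.061, 0.00477) and P4ha1 (0.21 ± 0.052, 0.00779). It was negative for Ndrg1 (-0.53 ± 0.048, 1.36e-05) and Bnip3l (-0.16 ± 0.049, 0.0239), and did not pass for Egln1 (0.081, 0.262) and Hif1a (0.05, 0.479). In all 7 of 9 members passed, against 45.5% of all genes, of which 15% were positive and 30.6% negative. Positive calls were 32.9% of all calls, 56.5% under size factors and 49.6% under quantile normalization. The median of all genes was -0.09, and 0.015 under size factors, a shift of over 0.1. Under size factors Egln1 (0.197, adjusted p = 0.0224) and Hif1a (0.17, 0.0396) passed and Bnip3l did not (-0.039, 0.579). Bnip3l was also lost under quantile normalization (0.0529) and without HTL replicate 1 (0.0653), 2 (0.0597) or 3 (0.0788), with 0.0177 to 0.579 over all settings.

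Other genes that control HIF were read from a list of 17, of which 16 could be tested. With HTL 10 rose and 3 fell (1 fell with no filter, without control replicate 3 or without HTL replicate 3), and in betaine plus HTL against HTL 1 rose and 8 fell, beside 39.8% and 20.4%, and 14.5% and 20.6%, of all genes. Egln2, the third hydroxylase gene of the family, went from 24.7 ± 0.97 to 29.5 ± 0.88 and then to 23.2 ± 0.42 FPKM (SD, n = 3 each). It rose with HTL (log2 fold change 0.24, limma adjusted p = 0.000124) and fell with betaine (-0.34, 4.16e-05), the reverse of Egln3. In betaine plus HTL it was below control (-0.092, 0.0387), a call lost in 9 of the 16 alternatives, with 0.00331 to 0.139 over all settings. Vhl, which encodes the recognition subunit of the ligase, stood at 12.7 FPKM in control and 13.1 in betaine plus HTL and between 14.1 and 15.6 in the HTL libraries, a rise (0.23, 0.000476) and a fall (-0.18, 0.00516). Arnt, the stable partner subunit, stood at 23.9, 26.5 and 23.0 FPKM, with a rise (0.14, 0.00303) that was lost under size factors (0.059, 0.135, with 0.00172 to 0.135 over all settings) and a fall (-0.20, 0.000995). Hif1an, whose product blocks the coactivator contact of HIF, rose from 10.7 to 13.3 FPKM with HTL (0.29, 6.54e-05) and stood at 13.0 with betaine. Cited2, which encodes a competitor for the same coactivators, rose from 66.5 ± 1.64 to 106 ± 1.26 FPKM (0.67, 1.09e-08) and stood at 108 with betaine. Epas1, which encodes the other main alpha subunit, was low, at 1.34, 1.03 and 0.628 FPKM, and fell in betaine plus HTL against HTL (-0.32, 0.00968) and against control (-0.52, 0.000159). Its difference between HTL and control (-0.20, 0.0462) passed in 8 of the 16 settings that gave a value, with adjusted p from 0.00487 to 0.162, and was lost without control library 2 (0.162) or 3 (0.123), HTL library 1 (0.138) or 3 (0.119), or library 3 of betaine plus HTL (0.056).

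**Figure D5:**
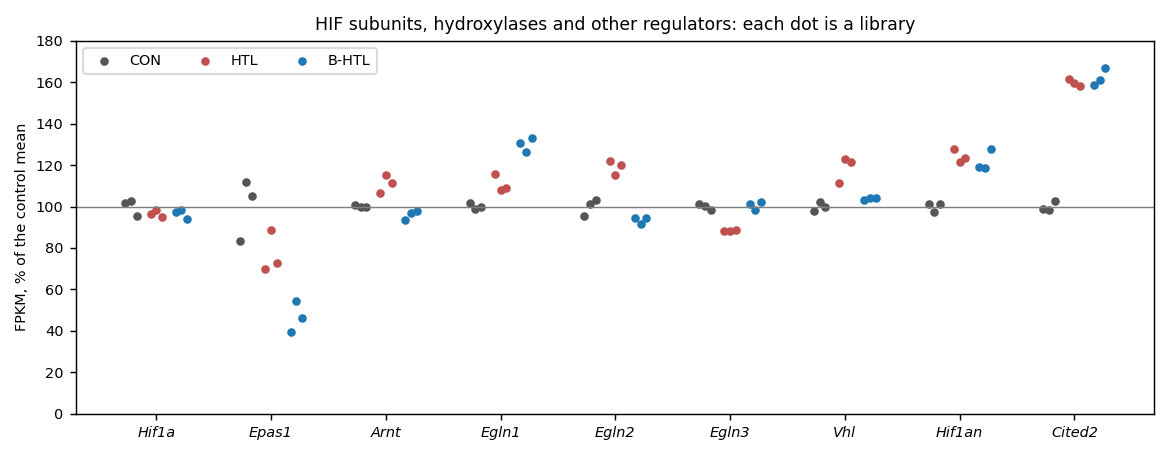
FPKM as a percentage of the control mean (y axis, from 0) for HIF subunits, hydroxylases and other regulators, with each library as a dot (grey, control; red, HTL; blue, betaine plus HTL). Egln2, Vhl and Arnt peak in the HTL libraries, Egln3 dips there, and Cited2 is high in both HTL-exposed groups (106 and 108 FPKM against 66.5 in control).

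Of 40 other genes widely listed as HIF targets, 31 were tested. With HTL 13 rose and 10 fell, beside 39.8% and 20.4% of all genes. Under size factors 7 rose and 13 fell, where 2952 of 11009 genes rose and 3400 fell. Under quantile normalization 7 rose and 11 fell, where 3250 of 11012 genes rose and 2968 fell. In betaine plus HTL against HTL 13 rose and 1 fell, beside 14.5% and 20.6% of all genes. Over the settings the rises ran from 8 (without HTL replicate 3) to 16 (under size factors, where 2051 of 11009 genes rose). They were 9 with no filter, without betaine plus HTL replicate 1 or 2, or with a replicate block. Without betaine plus HTL replicate 1, 2 fell. The median of betaine plus HTL minus HTL was 0.08 for the list, against -0.02 for all genes. Ero1a, an ER oxidase gene, rose at both steps, from 45.2 ± 0.50 to 58.6 ± 2.06 and 71.0 ± 1.12 FPKM (log2 fold changes 0.37 and 0.27, limma adjusted p = 1.36e-06 and 4.63e-05). Mxi1, which encodes a MYC antagonist, also rose at both, from 10.5 to 15.5 and 17.9 FPKM (0.51 and 0.2, 5.81e-07 and 0.00145), as did the collagen crosslinking gene Lox, from 99.7 to 113 and 139 FPKM (0.18 and 0.297, 0.000157 and 1.48e-05). Stc2, a secreted glycoprotein gene, stood at 10.3 FPKM in control and HTL and rose to 15.4 with betaine (0.54, 5.18e-05). Ddit4, which encodes an inhibitor of mTOR signalling, fell from 112 to 79.3 FPKM with HTL (-0.495, 2.27e-06) and rose to 94.3 with betaine (0.25, 0.00103). Unlike Bnip3, it stayed below control with betaine plus HTL (-0.248, 0.000314). The 1 that fell with betaine was Tfrc, from 69.1 to 55.1 FPKM (-0.32, 1.81e-05). Sap30 (-0.49, 3.82e-06) and Plod1 (-0.37, 1.32e-05) were also among the 10 that fell with HTL. Car9 (-0.021, 0.849) and Hilpda (-0.075, 0.436) did not pass in betaine plus HTL against HTL. Lox, Ddit4, Tfrc, Sap30, Plod1, Car9 and Hilpda were named after their values were seen.

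Among relatives and receptors of the 2 ligands, 8 of 14 listed genes were tested, of which 3 rose and 3 fell with HTL and 2 rose and 2 fell in betaine plus HTL against HTL (1 fell without betaine plus HTL replicate 1). The shares of all genes were 39.8% and 20.4% with HTL, and 14.5% and 20.6% with betaine. Vegfc, the lymphatic growth factor gene, rose with Vegfa, from 2.25 ± 0.395 to 3.17 ± 0.284 and 5.84 ± 0.501 FPKM (log2 fold changes 0.37 and 0.71, limma adjusted p = 0.00361 and 0.00013). Vegfb fell from 53.4 to 43.6 FPKM with HTL (-0.28, 2.48e-05) and stood at 43.2 with betaine (-0.015, 0.747). Nrp2, a coreceptor gene for VEGF and semaphorins, fell from 38.3 ± 0.42 to 24.5 ± 1.14 FPKM with HTL (-0.63, 1.21e-07) and rose to 40.1 ± 1.19 with betaine (0.69, 1.93e-07). Nrp1, its relative, stood at 1.42 FPKM in control and HTL and fell to 0.821 with betaine (-0.41, 0.000239). The receptor gene Flt1 was at 3.17, 2.74 and 2.28 FPKM and fell with HTL (-0.16, 0.0197, lost without control replicate 1 at 0.0654) and again with betaine (-0.19, 0.0151, lost without library 1 of betaine plus HTL at 0.0512), the ranges over settings being 0.00103 to 0.0654 and 0.0151 to 0.0512. The main VEGF receptor gene Kdr reached at most 0.041 FPKM and Calcrl, the adrenomedullin receptor gene, 0.43 FPKM. Vegfb, Nrp1, Flt1, Kdr and Calcrl were named after their values were seen.

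Of 15 family relatives 13 were tested. With HTL 6 rose and 1 fell (4 fell under size factors, 3 under quantile normalization, 2 without betaine plus HTL library 1 or 3 or with 2 groups fitted, and 0 of 9 with a filter at 5 FPKM), and with betaine 1 rose and 5 fell. Of all genes, 39.8% rose and 20.4% fell with HTL, and 14.5% rose and 20.6% fell with betaine. With HTL, 3400 of 11009 genes fell under size factors and 2968 of 11012 under quantile normalization. Pdk2 rose with HTL from 1.47 to 2.87 FPKM (0.65, limma adjusted p = 9.38e-06) and Pdk4 from 4.26 to 6.15 (0.45, 0.000105), where Pdk1 fell. With betaine Pdk2 stood at 2.59 FPKM (-0.11, 0.21), and Pdk4 fell to 5.08 (-0.24, 0.0138). The fall of Pdk4 was lost with no filter (0.0556), with 0.0031 to 0.0556 over all settings. Pdk3 stood at 9.18, 8.73 and 8.11 FPKM in control, HTL and betaine plus HTL. It was below control with betaine plus HTL (-0.16, 0.00738), as Pdk1 was. HTL minus control was -0.065 (0.219) for Pdk3, and it passed as lower under size factors (-0.14, 0.0181) and quantile normalization (-0.15, 0.017), with 0.017 to 0.426 over all settings. Pdp2, which encodes a phosphatase that reverses the kinases' action, fell from 5.72 to 4.80 and 3.73 FPKM (-0.21 and -0.295, adjusted p = 0.00836 and 0.0026). Pdp1, which encodes the other phosphatase, rose from 4.15 to 5.45 FPKM with HTL (0.32, adjusted p = 0.000379) and fell to 4.54 with betaine (-0.22, 0.00969). The 1 rise with betaine was that of P4ha2, a paralog of P4ha1, from 36.9 to 39.4 FPKM (0.094, 0.042), which was lost in 10 of 16 alternatives, among them those without any 1 control library (0.0507 to 0.0576), HTL library 1 (0.154) or 3 (0.0806), or library 1 or 2 of betaine plus HTL (0.105 each), and ran from 0.0115 to 0.154. P4hb, the partner subunit of both, was at 336, 339 and 316 FPKM, and HTL minus control was 0.015 (0.623), turning to -0.073 (0.0458) under size factors, with 0.0458 to 0.926 over all settings. With betaine it fell (-0.1, 0.00724), a call lost under size factors (-0.072, 0.0726), with 0.00576 to 0.0726 over all. Pdk2, Pdk3, Pdk4, Pdp1, P4ha2 and P4hb were named after their values were seen.

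The genes with the pattern most like each of 3 members were found by the root mean square difference of centred log2 values over the 9 libraries, among 7563 genes averaging 5 FPKM or more. For Vegfa they were Mex3b, an RNA-binding protein gene (0.091), Cth, the cystathionine lyase gene of transsulfuration (0.093), and Gbp3, a guanylate-binding protein gene (0.095), against a median of 0.36 over all candidates. Cth stood at 18.3, 20.1 and 30.7 FPKM in control, HTL and betaine plus HTL. For Bnip3 they were Rbmx (0.027), Ipo7, a nuclear import receptor gene (0.034), and the elongation factor gene Ell2 (0.034), with Ipo7 at 81.9, 71.0 and 81.3 FPKM. For Hif1a they were Strn3 (0.015), Shoc2 (0.024) and Smchd1 (0.024), against a median of 0.11.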

How the data were processed

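RNA of 9 HT-22 libraries was measured, with groups taken from the sample titles and replicate numbers as printed there. The authors deposited FPKM per gene, and the tools named per the submitters' processing notes are HISAT2, HTSeq, fastp and R 3.2.0, with the build mm10; the sources used here give neither their roles nor the counting options. TRIzol extraction and a VAHTS library kit were used, per the labels' protocols, and whether strand was kept is not given in the sources used here.

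Library totals were inferred from low FPKM values, and with them 21352 of 21352 genes gave whole reads within 0.05 reads, with each length chosen as the shortest that did so, which makes this a weak check. The 11012 genes averaging 0.5 FPKM or more were tested on log2(FPKM + 1), which understates changes of low genes, with limma 3.58.1 in R 4.3.3. The fit had group means, an intensity trend and 6 residual degrees of freedom, with two-sided tests, Benjamini-Hochberg adjustment within each comparison and a threshold of 0.05. The fit was tested on simulated data. An exact permutation test of 3 libraries against 3 cannot go below 0.1. Nothing in the labels ties replicates to separate cultures, so the p-values reflect spread among libraries that may be technical. Python 3.11.15 was used for summaries.

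The members and lists were chosen with earlier results of these data known. The partner lists share some genes, such as Egln2 (regulators and family relatives) and P4ha2 (other HIF targets and family relatives), and hold 65 tested genes in all. All members are named. Partner genes are named if called in a comparison with no overlap, a size of at least 0.5 (log2) and at least 5 FPKM in the higher group, up to 12, plus Epas1, Arnt, Hif1an, Vhl and Egln2, and others are marked as named after their values were seen. One gene that this rule names is not reported here. The 3 genes most like Vegfa, Hif1a and Bnip3 leave out provisional symbols. Without strand, reads of overlapping or antisense genes cannot be told apart. Positions came from RefSeq GRCm38.p6 by Entrez identifier. Alternatives were a pseudocount of 0.1, no filter, a filter at 5 FPKM, size factors, quantile normalization, leaving out each library, a replicate block and fits of 2 groups.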

Additional observations from a re-analysis of the deposited data

How the results depend on the processing

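Under size factors, genes that fell in HTL against control went from 2251 to 3400, members that rose from 3 to 1 and members that fell from 3 to 5. The same setting left 0 members that fell in betaine plus HTL against HTL (1 in the reported fit), gave 3 below control in betaine plus HTL (1 reported), and gave 2590 positive and 1992 negative genes in the second difference (1649 and 3365 reported). Members with a negative second difference went from 2 to 1 under size factors and under quantile normalization. Leaving out 1 library gave 0 to 1 members that fell in betaine plus HTL against HTL, 1 to 2 in betaine plus HTL against control and 1 to 2 with a negative second difference. P4hb in HTL against control turned from 0.015 to -0.073 (log2) under size factors. The cause of these changes was not tested. The other 236 values of counts stayed within 1.5 times. Same-numbered libraries of different groups had deviations correlated at -0.073 to 0.059, and other-numbered ones at -0.094 to 0.153. No pairing by replicate number was seen in these values, but they cannot exclude a paired design. A replicate block gave 4309 rises and 2223 falls in HTL against control and changed no call of a member. Depth limits Adm alone among the members, with at most 3 reads in a library.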
